A study of Mus musculus with 12 samples.

Results

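Ventricles of 4 mice labelled TAC-mScarlet were compared with ventricles of 4 mice labelled Sham-NT, 8 of the 12 RNA-seq libraries of a study of BacNav gene therapy, with groups taken from the mouse names. All mice were wild-type C57Bl/6J, and the sources used here give neither age nor sex, nor the time from surgery to tissue collection. The Sham-NT mice were operated on without constriction and injected with PBS. TAC-mScarlet mice had transverse aortic constriction (TAC), which narrows the aorta so that the left ventricle pumps against a raised pressure, and were injected with AAV9-MHCK7-mScarlet, an adeno-associated virus that carries a red fluorescent protein under the muscle promoter MHCK7. Constriction and vector therefore changed together, and their parts in any difference cannot be told apart. The other 4 libraries came from constricted mice whose vector carried BacNav, a bacterial sodium channel, beside mScarlet, and they enter the fit through its estimate of spread. Each library is RNA of the snap-frozen ventricles of 1 mouse, so both ventricles and all their cell types are mixed in it.

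A heart under raised pressure thickens its muscle cells, turns part of its contractile and hormone genes back toward those of the fetal heart, lays down extracellular matrix through activated fibroblasts and draws less of its energy from fatty acids. In the ventricles of TAC-mScarlet mice, 11 of 23 hypertrophic and fetal muscle genes rose, against 2.65% of all genes. Among them were Ankrd1 at 6.60 times and Acta1 at 28.2 times the mean sham level. Matrix genes such as Postn (17.4 times) and Fbln2 (2.32 times) rose as well. Without TAC-mScarlet 3 the log2 fold change of Postn went from 4.12 to 3.09 and was not called (adjusted p = 0.063). Acta1 was not called without that heart either (4.67, adjusted p = 0.0628). Such losses were common: of 719 called genes, 97 were called again without TAC-mScarlet 3, 14 without Sham-NT 2 and 20 without Sham-NT 4. Of 36 nuclear genes of respiratory complex I 16 fell and of 42 genes of fatty acid use 12, against 2.52% of all genes. For complex I, Sham-NT 3 lay close to the constricted hearts, with a list median of -0.46 against the sham mean beside -0.48 in TAC-mScarlet 1. No complex I gene was called without TAC-mScarlet 3, Sham-NT 2 or Sham-NT 4. The G protein brake Rgs2 also fell, to 0.357 of the sham level. The genes are described in that order, from contractile genes through ion transport and signalling to matrix, mitochondria and the cells around the muscle.

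Total counts ran from 5360869 to 7837342 in Sham-NT and from 8275608 to 9813733 in TAC-mScarlet, so depth moved with the groups. Its part in the differences was not tested beyond thinning every library to the shallowest. That gave 708 genes in place of 719, with 624 of the 719 called again. As a check of the labelled tissue, all 14 markers of ventricular muscle cells were detected, and together they took 111381 to 119853 CPM (counts scaled to 1000000 of each library's total times its TMM normalisation factor) in Sham-NT and 75809 to 98908 CPM in TAC-mScarlet. Libraries also differed inside the groups. The immediate early gene Fos was at 80.5, 54.9, 5.56 and 1.60 CPM in Sham-NT 1 to 4 and at 301, 123, 154 and 7.89 CPM in TAC-mScarlet 1 to 4, which put Sham-NT 3 and 4 and TAC-mScarlet 4 on a low side. TAC-mScarlet 3 was the most displaced heart: it held the highest of the 4 values in 263 of 369 genes called higher and the lowest in 244 of 350 called lower.

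Of 13910 genes tested, 719 were called at an adjusted p below 0.05 by the quasi-likelihood test of edgeR (Benjamini-Hochberg), 5.17% of all, with 369 higher (2.65%) and 350 lower (2.52%) in TAC-mScarlet. The higher genes moved further, with 172 of them changed at least 2-fold against 84 of the lower ones. They were also less abundant, with a median level of 24.8 CPM over the 8 libraries against 64.8 CPM. The median log2 fold change of all genes was 0.00, and under scaling by library size alone the median of all genes shifted by 0.13 and the split became 698 higher and 205 lower. Differences below are relative to the TMM scaling, which centres the genes.

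**Figure D1:**
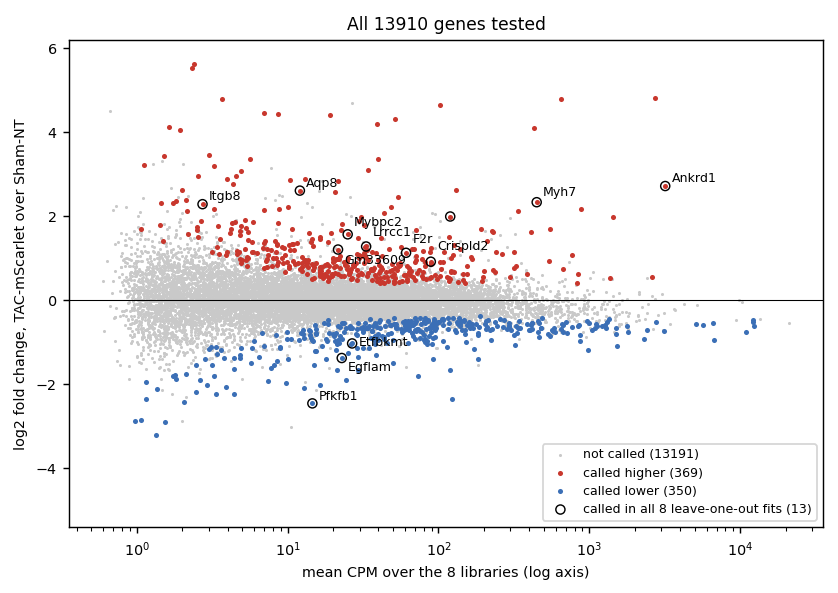
Each point is a gene, with its mean level over the 8 libraries in CPM on a log axis and its log2 fold change of TAC-mScarlet over Sham-NT. Red and blue points are the 369 and 350 genes called higher and lower, and circles mark the 13 genes called in every leave-one-out fit, most of them labelled, of which 10 lie above 0 and 3 below.

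How many genes were called depended on which library was left out. When each of the 8 libraries was left out in turn, all 719 genes kept their sign, but only part of them was called again: 14 when Sham-NT 2 was left out, 20 for Sham-NT 4, 97 for TAC-mScarlet 3, 210 for TAC-mScarlet 4 and 232 for Sham-NT 1. Without Sham-NT 3 the count went the other way, to 1055, of which 610 were lower. At most 3 members of any list below were called without Sham-NT 2 or without Sham-NT 4, and at most 8 without TAC-mScarlet 3. List medians of the log2 fold change are therefore followed by their range over the 8 leave-one-out fits. Counts of called members are to be read beside the 5.17% of all genes called (2.65% higher, 2.52% lower).

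**Figure D2:**
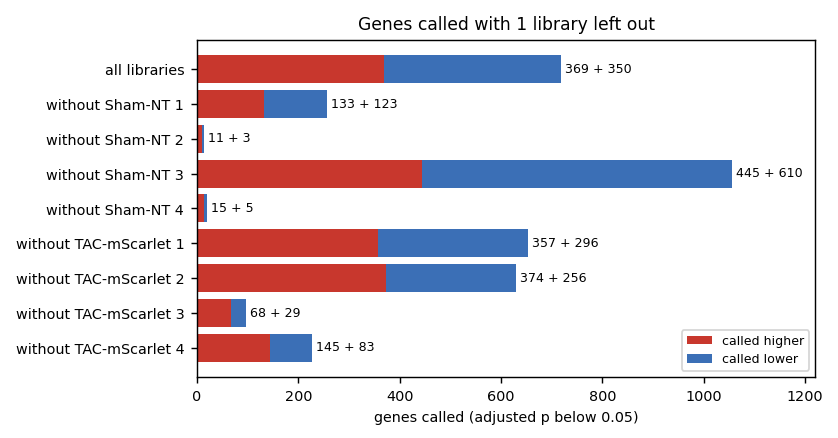
Bars give the number of genes called higher (red) and lower (blue) with all libraries and with 1 library left out, and the printed numbers are the same 2 counts. The shortest bars are those without Sham-NT 2 (11 + 3) and Sham-NT 4 (15 + 5).

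Called in all 8 of these fits were 13 genes, 0.0935% of those tested. Ankrd1, an ankyrin repeat protein that binds titin and responds to stretch, was at 825, 655, 961 and 914 CPM in Sham-NT and 4282, 3971, 7349 and 6549.5 CPM in TAC-mScarlet. Every constricted heart held more than 4 times the mean sham level (log2 fold change 2.72 ± 0.24, SE, adjusted p = 6.7e-05), and no gene had a smaller adjusted p.

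A further 5 of the 13 encode receptors, a channel, a secreted protein and a contractile protein. Itgb8, the integrin subunit that helps release active TGF-beta, was at 0.991, 0.976, 0.776 and 0.961 CPM in Sham-NT and rose to 3.46, 4.19, 5.85 and 4.64 CPM (2.29 ± 0.32, adjusted p = 0.00406). F2r, the thrombin receptor PAR1, went from 42.2, 39.4, 41.0 and 30.3 to 71.7, 68.7, 113 and 81.8 CPM (1.13 ± 0.17, adjusted p = 0.00674). The groups did not overlap in either gene, although heart 3 stood above the other constricted hearts in both. Mybpc2, a myosin binding protein of fast skeletal muscle, went from 14.1, 12.3, 12.2 and 11.9 to 45.0, 40.8, 27.4 and 36.6 CPM (1.57 ± 0.21, adjusted p = 0.00402), and here heart 3 was the lowest of the constricted 4. Crispld2, a secreted protein, rose from 61.5 ± 7.98 CPM (SD, n = 4) to 117 ± 9.86 CPM (0.92 ± 0.12, adjusted p = 0.00369). Aqp8, a water and peroxide channel, had 2.78, 4.29, 4.14 and 2.24 CPM in Sham-NT and 24.6, 15.6, 18.0 and 24.8 CPM in TAC-mScarlet (2.61 ± 0.38, adjusted p = 0.00779), with hearts 1 and 4 the highest.

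Lrrcc1, a centrosomal protein, rose from 19.3 ± 1.39 to 47.1 ± 3.49 CPM, and the long non-coding RNA Gm33609 rose from 13.1 ± 0.731 to 30.2 ± 5.43 CPM. Myh7, described below, is also among the 10 higher genes. On the lower side stood Egflam, or pikachurin, a laminin-domain matrix protein (29.1, 39.4, 27.2 and 36.2 CPM against 14.9, 14.7, 10.3 and 11.0 CPM, -1.37 ± 0.19, adjusted p = 0.0041). Etfbkmt, a methyltransferase that modifies the electron transfer flavoprotein, fell from 35.9 ± 4.44 to 17.7 ± 2.40 CPM (-1.03 ± 0.14, adjusted p = 0.00402). Pfkfb1, an enzyme that sets the level of a glycolytic signal molecule, was at 18.0, 37.3, 18.4 and 25.2 CPM against 5.26, 6.57, 3.83 and 2.32 CPM (-2.45 ± 0.37, adjusted p = 0.00986), but its exons overlap those of Apex2 on the other strand, which also fell (-1.49, adjusted p = 0.0148). Exons of Lrrcc1, Mybpc2, Egflam and Myh7 also overlap annotated neighbours, so part of their counts could come from those. In GENCODE vM21 (GRCm38), Ankrd1 lies at chr19:36111961-36120099 on the minus strand and Myh7 at chr14:54970684-54994626 on the minus strand. Itgb8 lies at chr12:119158022-119238802, F2r at chr13:95601803-95618487, Mybpc2 at chr7:44501699-44524656, Crispld2 at chr8:119992438-120052793 and Aqp8 at chr7:123462291-123468004. Egflam lies at chr15:7206120-7398395, Etfbkmt at chr6:149139849-149151171 and Pfkfb1 at chrX:150588229-150643878. Except for the lincRNA Gm33609, at chr5:97143026-97149848, all of them are annotated as protein coding.

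The hypertrophic and fetal cardiac list held 23 tested genes, of which 11 rose, 1 fell and 11 did not pass, against 2.65% and 2.52% of all genes. The list's median was 1.11 (0.80 to 1.25) beside 0.00 for all genes, and 6 members were called without TAC-mScarlet 3. Acta1, the skeletal muscle actin of the embryonic heart, was at 251, 84.7, 221 and 193 CPM in Sham-NT and 4916, 2709, 6847 and 6673 CPM in TAC-mScarlet (4.82 ± 0.83, adjusted p = 0.0229). Nppa, which encodes atrial natriuretic peptide, was at 28.7, 32.8, 55.9 and 62.2 CPM against 406, 376, 2871 and 1348 CPM (4.79 ± 0.83, adjusted p = 0.0229). Nppb, the B-type peptide, was at 575, 249.7, 219 and 234 CPM against 1195, 663, 1864 and 2006 CPM (2.16 ± 0.41, adjusted p = 0.0229). None of the 3 overlapped between groups, yet their constricted hearts were uneven: heart 3 held about 7 times the Nppa of hearts 1 and 2, and Sham-NT 1 held the most Nppb of the sham hearts.

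A further 4 members show the range of responses inside the list. Xirp2, which binds actin at the intercalated disc, was at 469, 517, 742 and 589 CPM against 1688, 1394, 3382 and 2754 CPM (1.99, adjusted p = 0.0204). Ankrd23, a titin-binding relative of Ankrd1, rose by 1.61 ± 0.28 on the log2 scale and was lowest in heart 3 among the constricted hearts, at 25.0, 19.9, 11.5 and 27.1 CPM. Rcan1, a feedback inhibitor of calcineurin, was at 160.0, 84.7, 108 and 93.9 CPM against 341, 145, 372 and 529 CPM and rose by 1.63 ± 0.33, although Sham-NT 1 exceeded TAC-mScarlet 2. Tnnt1, the slow skeletal troponin T, was the member that fell, from 27.1 ± 2.37 to 17.5 ± 2.17 CPM. Cryab, an abundant small heat shock protein, gave 0.11 ± 0.15 (adjusted p = 0.742).

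**Figure D3:**
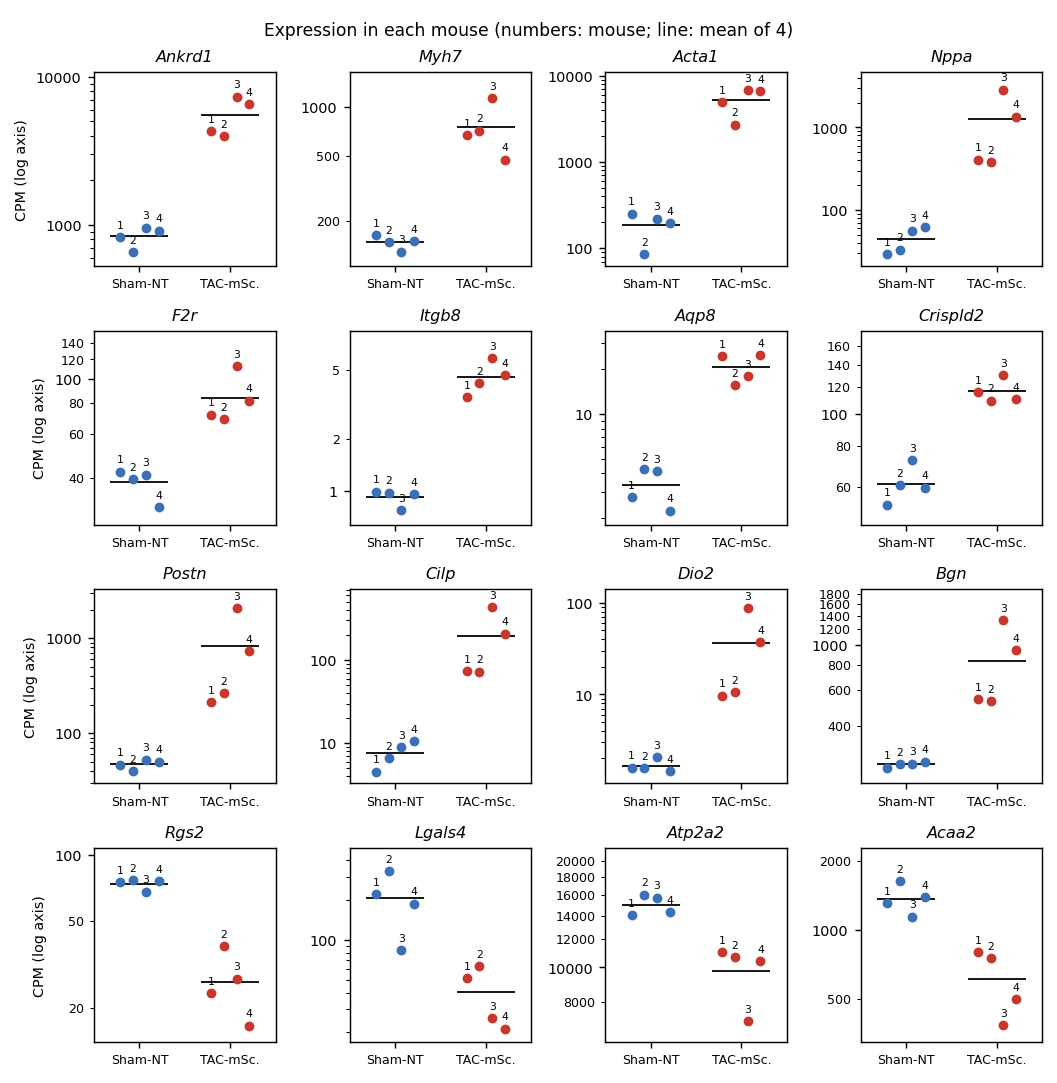
Points give the CPM of 16 genes in each mouse on log axes, with Sham-NT in blue and TAC-mScarlet in red; numbers name the mouse and lines are means of 4. Aqp8 and Crispld2 keep their constricted hearts close together, whereas in Postn, Cilp and Dio2 hearts 3 and 4 lie above hearts 1 and 2.

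The promoters of rising cardiac muscle genes are shown because such genes have classic promoter elements. These are the muscle CAT motif (CATTCC, on the other strand GGAATG), bound by TEAD factors, and the CArG box, bound by serum response factor. The 250 bases before the RefSeq start of 4 rising genes (GRCm38.p6, gene strand, 5′ to 3′) carry these letters in capitals. They are the rising genes searched that held a match. Ankrd1 lies at chr19:36119845-36120094 on the minus strand, Nppb at chr4:147985650-147985899 on the plus strand, Acta1 at chr8:123894776-123895025 and Myh7 at chr14:54994627-54994876, both on the minus strand.
Ankrd1: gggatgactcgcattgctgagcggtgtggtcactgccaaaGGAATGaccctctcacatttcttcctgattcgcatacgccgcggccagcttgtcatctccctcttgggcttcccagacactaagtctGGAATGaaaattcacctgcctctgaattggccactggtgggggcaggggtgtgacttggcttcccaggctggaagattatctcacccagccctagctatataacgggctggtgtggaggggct
Nppb: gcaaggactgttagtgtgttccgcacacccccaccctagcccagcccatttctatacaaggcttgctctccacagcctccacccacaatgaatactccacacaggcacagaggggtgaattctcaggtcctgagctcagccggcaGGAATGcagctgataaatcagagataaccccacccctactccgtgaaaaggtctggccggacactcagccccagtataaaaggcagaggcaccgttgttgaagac
Acta1: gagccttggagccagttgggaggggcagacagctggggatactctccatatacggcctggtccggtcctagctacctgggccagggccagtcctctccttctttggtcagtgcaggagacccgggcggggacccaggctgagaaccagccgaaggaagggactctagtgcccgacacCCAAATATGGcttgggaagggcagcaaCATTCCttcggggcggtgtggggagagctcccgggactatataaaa
Myh7: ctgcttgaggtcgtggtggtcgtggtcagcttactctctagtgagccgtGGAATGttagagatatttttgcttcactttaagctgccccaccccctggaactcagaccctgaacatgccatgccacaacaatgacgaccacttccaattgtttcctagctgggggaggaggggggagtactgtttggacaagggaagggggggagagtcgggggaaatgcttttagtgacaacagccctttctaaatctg
Ankrd1 held the CAT motif at 2 places, the other 3 genes held it once, and Acta1 also held a CArG box upstream of its CAT motif, with no overlap between the matches. Neither motif was in the windows of Nppa, Xirp2, Crispld2 and Itgb8, which also rose, and Myh6, which fell, had 1 CAT motif. Searched on both strands, the CAT motif was in 12.6% of all 32851 RefSeq windows of this length and in 10.7% of the 10374 windows of genes tested. It was in 14.5% of the 276 windows of genes called higher and in 12.2% of the 262 of genes called lower. A CArG box was in 1.47% of all windows and in 1.19% of those of genes tested. It was in 0.362% of the windows of genes called higher and 0.382% of those called lower, 1 window each. RefSeq windows were found for 276 of the 369 higher and 262 of the 350 lower genes, and Myh7 has 2, of which the first is shown. These are matches of letters and not known binding sites.

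Genes of the thick filament, thin filament and Z-disc changed in both directions: of 37 tested, 3 rose, 3 fell and 31 did not pass, and the median of 0.00 (-0.10 to 0.00) became 0.12 under library size scaling. Tnni3, the adult inhibitory troponin, was at 9441, 10124, 6514 and 9099.7 CPM in Sham-NT and 5270.1, 4810.3, 4023 and 4325 CPM in TAC-mScarlet (-0.93 ± 0.18, adjusted p = 0.0204). Tnnt2, cardiac troponin T, fell from 14204 ± 781 to 10207 ± 608 CPM. Myh6, the fast alpha myosin heavy chain, was at 11374, 12876, 16938 and 13415 CPM against 9315, 9300.2, 4764 and 9208 CPM (-0.74 ± 0.20, adjusted p = 0.0442), and the call was lost in each of the 8 leave-one-out fits. On the rising side, Synpo2l, a Z-disc actin bundler, was at 188, 186, 193 and 235 CPM against 405, 319, 686 and 1081 CPM, highest in heart 4 (1.64 ± 0.38, adjusted p = 0.0339). Flnc, the muscle filamin, rose by 0.83 ± 0.18 and Myom3, an M-band protein, by 1.14 ± 0.26. Actc1, the adult cardiac actin, gave 0.00 ± 0.15 (adjusted p = 0.999).

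In pairs of related muscle isoforms, the one more typical of the fetal heart took a larger share in every constricted heart, measured as its part of the pair's counts per exon length. Myh7, the slow beta myosin heavy chain, was at 164, 148, 129.8 and 151 CPM in Sham-NT and 673, 715, 1129 and 476 CPM in TAC-mScarlet (2.34 ± 0.30, adjusted p = 0.00406). Its share of the Myh7 and Myh6 pair was 1.11, 0.891, 0.595 and 0.87% in the sham hearts and 5.34, 5.67, 15.6 and 3.88% in the constricted hearts. Heart 3, with the least Myh6, had the largest share, and heart 4 the smallest. The Acta1 share of cardiac and skeletal actin was 2.89, 1.03, 1.87 and 2.11% against 33.0, 23.8, 45.8 and 39.1%. In the enolases, the ubiquitous Eno1 took 1.65, 1.47, 2.27 and 1.84% of its pair with muscle Eno3 in Sham-NT and 2.72, 2.71, 4.37 and 4.08% in TAC-mScarlet. The hexokinase Hk1 took 16.7, 14.1, 17.4 and 17.6% of its pair with Hk2 against 20.0, 21.8, 29.5 and 20.8%. None of these 4 shares overlapped between the groups, whereas those of Ckb, Slc2a1, Cox6a1, Ldha and Tuba1a with their muscle partners did. The pairs were chosen with earlier results known, so the shares carry no test, and reads of near-identical isoforms could be split between them.

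**Figure D4:**
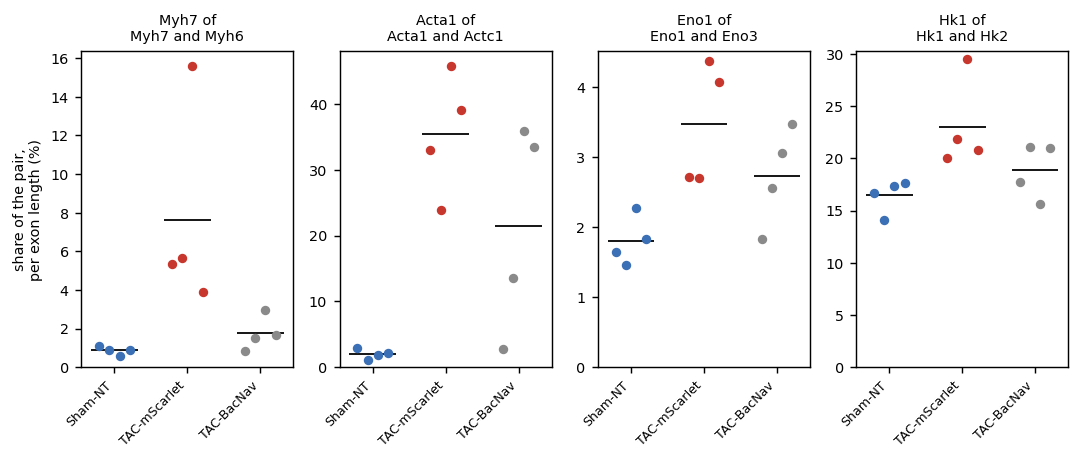
Points are the share of the first gene in each pair per exon length, in percent, for each library of the 3 groups, and lines are means of 4. TAC-mScarlet (red) lies above every Sham-NT library (blue) in all 4 panels, and TAC-BacNav is shown in grey.

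Of 19 desmosome, adherens and gap junction genes 2 rose, 2 fell (21.1% called, against 5.17% of all genes) and 15 did not pass (median 0.06, -0.02 to 0.09). Dsg2, a desmosomal cadherin, was at 76.5, 131, 123 and 98.2 CPM against 62.1, 67.6, 48.9 and 49.1 CPM (-0.91 ± 0.17, adjusted p = 0.0174), and Ctnna1, alpha-catenin, fell by 0.41 on the log2 scale. Des, the intermediate filament desmin, rose from 2128 ± 71.8 to 3118 ± 547 CPM, and Nrap, which anchors actin at the disc, rose by 0.93 ± 0.24 with overlap at Sham-NT 3. Among 38 cytoskeletal genes 2 fell, 0 rose and 36 did not pass (median 0.16, 0.05 to 0.21). The share called, 5.26%, was close to that of all genes. Tuba4a, a muscle-rich alpha-tubulin, was at 509, 633, 633 and 632 CPM against 410.4, 290.4, 224 and 384 CPM (-0.88 ± 0.18, adjusted p = 0.0229), and Map1lc3a, a microtubule-associated autophagy protein, fell by 0.66 on the log2 scale. Vim, the filament protein of mesenchymal cells, was at 344, 430.0, 922 and 657 CPM in the constricted hearts, high only in hearts 3 and 4, and did not pass (adjusted p = 0.144).

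Calcium and potassium handling had medians below 0, for calcium close to 0 under library size scaling. Of 36 genes of the sarcoplasmic reticulum and calcium cycle 2 fell (5.56%, against 5.17% of all genes called) and 34 did not pass. Their median of -0.15 (-0.16 to -0.12) became -0.02 under library size scaling. Atp2a2, the calcium pump of the reticulum, was at 14040, 16035, 15742 and 14318 CPM in Sham-NT and 11051, 10670, 7061 and 10435 CPM in TAC-mScarlet (-0.62 ± 0.15, adjusted p = 0.0323), lowest in heart 3. Hrc, a luminal calcium binder, was at 1434, 1396, 1786 and 1737 CPM against 1190.0, 1160.4, 632 and 1023 CPM (-0.67 ± 0.17, adjusted p = 0.0381). The ryanodine receptor gene Ryr2 had no overlap between groups but did not pass (-0.65 ± 0.20, adjusted p = 0.0663), and Pln, the pump's brake, gave -0.31 ± 0.15 (adjusted p = 0.248). Of 30 potassium and pacemaker channel genes 3 fell and 27 did not pass, with 24 values below 0. Their median of -0.37 (-0.44 to -0.19) became -0.24 under library size scaling. Kcnv2, a silent subunit that modifies Kv2 channels, was at 47.4, 44.9, 26.1 and 36.1 CPM against 13.7, 17.9, 4.22 and 5.80 CPM (-1.89 ± 0.42, adjusted p = 0.0295), with hearts 3 and 4 far below hearts 1 and 2. Kcnd2, which carries transient outward current, fell by 0.85 on the log2 scale, and Kcnk3, the background channel TASK-1, by 0.68. No gene of either list was called without TAC-mScarlet 3.

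Sodium transport genes moved in both directions (2 of 24 rose, 1 fell and 21 did not pass; median 0.11, 0.05 to 0.22). The share called was 12.5%, against 5.17% of all genes. Fxyd6, a pump regulator, was at 41.2, 36.5, 26.4 and 29.6 CPM in Sham-NT and 60.9, 56.5, 130.0 and 72.6 CPM in TAC-mScarlet (1.27 ± 0.24, adjusted p = 0.0204). The 2 groups did not overlap, and heart 3 held the most.

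Hormone receptor and second messenger genes gave few calls in number, but shares above the 5.17% of all genes called. These shares were 11.8% in the natriuretic list and 17.2% in the adrenergic list. In the natriuretic and cyclic nucleotide list 2 of 17 fell and 15 did not pass, and the median of -0.07 (-0.17 to 0.01) became 0.06 under library size scaling. Corin, the protease that activates natriuretic peptide precursors, was at 199, 287, 295 and 238 CPM against 162, 187, 139.5 and 171 CPM (-0.63 ± 0.14, adjusted p = 0.0262). Pde4d, a cyclic AMP phosphodiesterase, fell by 0.79 on the log2 scale, whereas the clearance receptor Npr3 (0.48 ± 0.19, adjusted p = 0.15) did not pass. Of 29 adrenergic, angiotensin, endothelin and muscarinic genes 3 were called higher, 2 lower and 24 neither, with a median of -0.07 (-0.16 to 0.11) that became 0.06 under library size scaling. Ace, which makes angiotensin II, was at 45.6, 43.3, 66.6 and 64.4 CPM against 87.7, 88.8, 166 and 146 CPM (1.15 ± 0.30, adjusted p = 0.0442), and Mas1, the receptor of angiotensin 1-7, fell from 3.48 ± 2.40 to 0.644 ± 0.432 CPM. The endothelin B receptor Ednrb rose by 0.86 ± 0.19 and beta-arrestin 1, Arrb1, by 0.60 ± 0.14, and the adenosine A1 receptor gene Adora1 fell by 1.12 on the log2 scale.

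Rgs2, which switches off the Gq pathway used by angiotensin and endothelin, was at 75.1, 76.5, 67.8 and 75.8 CPM in the 4 sham hearts and at 23.4, 38.2, 27.2 and 16.6 CPM in the constricted hearts. Every constricted heart lay well below the lowest sham heart (-1.48 ± 0.25, adjusted p = 0.015), and the call held in 6 of the 8 leave-one-out fits. Of 15 regulators of this family 2 fell (13.3% called, against 5.17% of all genes) and 13 did not pass (median 0.24, 0.09 to 0.32). The other that fell, Rgs7, was at 1.39, 4.29, 2.33 and 1.76 CPM against 0.239, 0.34, 0 and 0.464 CPM. In the thyroid hormone list 1 of 13 rose, 1 fell (15.4% called) and 11 did not pass (median -0.18, -0.27 to -0.13). Dio2, the enzyme that makes active thyroid hormone, was at 1.59, 1.56, 2.07 and 1.44 CPM against 9.68, 10.5, 88.1 and 37.2 CPM (4.42 ± 0.97, adjusted p = 0.0343), highest in heart 3. Slc16a10, a thyroid hormone transporter, fell from 32.8 ± 3.26 to 20.6 ± 3.34 CPM.

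Growth factor and cardiokine genes leaned higher, with 5 of 44 risen, 1 fallen and 38 not passing (median 0.33, 0.24 to 0.37). The share called was 13.6%, against 5.17% of all genes. Gdf15, a stress hormone of the TGF-beta family, was at 1.98, 0.781, 0.388 and 1.12 CPM against 3.70, 2.38, 15.8 and 12.99 CPM (3.08 ± 0.69, adjusted p = 0.0283), with hearts 3 and 4 several times above hearts 1 and 2. Igfbp5, a binding protein of insulin-like growth factors, was at 123, 116, 104 and 86.2 CPM against 254, 251, 203 and 173 CPM (1.04 ± 0.19, adjusted p = 0.0174) with no such step. Fstl1, a secreted follistatin-like protein, rose by 1.66 ± 0.34 and Tnfrsf12a, the TWEAK receptor, by 1.17 ± 0.28, while the peptide hormone gene Apln fell by 0.97 on the log2 scale with overlap.

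The TGF-beta, activin and CCN list had 9 of 27 genes risen, 1 fallen and 17 not passing, a median of 0.55 (0.47 to 0.69) and 5 calls without TAC-mScarlet 3. Inhba, the activin A subunit, was at 1.59, 2.93, 1.68 and 1.28 CPM in Sham-NT and 6.93, 5.44, 8.15 and 6.15 CPM in TAC-mScarlet (1.85 ± 0.30, adjusted p = 0.0128) and was called in 7 leave-one-out fits. Tgfb2 was at 13.9, 16.4, 17.0 and 10.3 CPM against 31.1, 28.2, 69.8 and 69.7 CPM and Ccn2, or CTGF, at 165, 143, 102 and 91.7 CPM against 381, 227, 934 and 663 CPM, both with hearts 3 and 4 above hearts 1 and 2. Bambi, a decoy receptor, rose by 0.94 ± 0.17 and Ltbp1, a latent TGF-beta binding protein, fell by 0.50 on the log2 scale. In the Wnt, Notch and Hippo list 7 of 31 rose and 24 did not pass (median 0.22, 0.11 to 0.28). Frzb, a secreted Wnt antagonist, was at 6.15, 7.42, 5.31 and 4.81 CPM against 17.4, 14.3, 77.4 and 31.5 CPM, and the Wnt receptors Fzd1 and Fzd2 rose by 1.22 ± 0.27 and 1.47 ± 0.30. Heyl, a Notch target, rose by 0.75 ± 0.17.

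Among 34 cardiac transcription factors 4 rose, 1 fell and 29 did not pass (median 0.12, 0.05 to 0.16). Runx1, a factor of blood and dedifferentiating muscle cells, was at 2.78, 1.95, 3.24 and 1.76 CPM against 4.90, 4.53, 12.5 and 6.96 CPM (1.56 ± 0.33, adjusted p = 0.0241). Meox1, found in activated fibroblasts, rose from 16.8 ± 3.75 to 70.3 ± 45.8 CPM, and Sox9, a cartilage and valve factor, from 2.49 ± 1.19 to 9.33 ± 3.33 CPM. Klf15, a repressor of hypertrophic genes and driver of lipid use, was at 48.0, 39.2, 59.8 and 50.6 CPM against 34.4, 25.5, 15.0 and 28.5 CPM (-0.94 ± 0.21, adjusted p = 0.0251). In the calcineurin and growth kinase list, beside Rcan1, Mapk14 (p38-alpha) fell by 0.56 on the log2 scale and 27 of 29 genes did not pass (median 0.07, -0.01 to 0.10). The share called was 6.90%, against 5.17% of all genes.

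Matrix genes were higher in all 4 constricted hearts, to very different levels. Of 47 matricellular proteins and proteoglycans 17 rose, 1 fell and 29 did not pass. Their median was 1.03 (0.75 to 1.19), 44 values were above 0, and 25 were higher with no overlap, against 6.33% of all genes. Postn, periostin of activated fibroblasts, was at 46.8, 39.6, 52.4 and 50.0 CPM in Sham-NT and 213, 263, 2067 and 736 CPM in TAC-mScarlet (4.12 ± 0.83, adjusted p = 0.0295). The cartilage matrix gene Cilp was at 4.56, 6.64, 8.93 and 10.6 CPM against 73.1, 72.3, 433 and 208 CPM, and Ltbp2 at 3.57, 3.90, 4.14 and 4.49 CPM against 17.9, 20.4, 172 and 85.7 CPM. In all 3 no sham heart came near the constricted ones, and heart 3 held the most and heart 4 the next most. None of the 3 was called without TAC-mScarlet 3.

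The next members differed less between the constricted hearts. Bgn, biglycan, was at 249.6, 260.4, 261 and 267 CPM against 544, 529, 1336 and 947 CPM (1.69 ± 0.30, adjusted p = 0.0179). Prelp, a collagen-binding proteoglycan, rose from 39.9 ± 2.05 to 93.6 ± 33.3 CPM, and Fbln2, a fibulin, was called in 7 leave-one-out fits at 73.0, 73.4, 82.0 and 106 CPM against 148, 156, 256 and 216 CPM (1.21 ± 0.22, adjusted p = 0.016). Emilin2, an elastic fibre glycoprotein, was the member that fell, from 30.9, 44.3, 45.9 and 47.3 to 14.5, 23.2, 11.5 and 17.6 CPM (-1.34 ± 0.24, adjusted p = 0.015), while its relative Emilin1 rose by 1.00 ± 0.20.

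Of 20 collagen genes 7 rose, 1 fell and 12 did not pass (median 0.63, 0.39 to 0.77; 3 calls without TAC-mScarlet 3). Col8a1, a short-chain collagen of remodelling tissue, was at 34.3, 34.0, 41.4 and 34.9 CPM against 119.7, 122, 428 and 229 CPM (2.63 ± 0.50, adjusted p = 0.0245). Col1a1, of the main fibrillar collagen, rose less, at 69.2, 56.6, 60.8 and 58.5 CPM against 122, 97.5, 307 and 175 CPM (1.52), and Col3a1 did not pass (1.59 ± 0.43, adjusted p = 0.0573). Col11a2 fell from 6.34 ± 1.23 to 2.46 ± 1.00 CPM. In collagen folding and processing 3 of 24 rose, 1 fell and 20 did not pass (median 0.44, 0.30 to 0.53), with Pcolce2, an enhancer of procollagen cleavage, up by 1.20 ± 0.23. Among 47 basement membrane and integrin genes 5 rose, 1 fell (12.8% called, against 5.17% of all genes) and 41 did not pass (median 0.28, 0.23 to 0.36). Beside Itgb8, Itgbl1 rose from 16.5 ± 4.81 to 91.3 ± 60.4 CPM and Itgb5 by 0.70 ± 0.13, whereas Itgb1bp2, or melusin, a muscle protein that binds the beta-1 integrin tail, fell by 0.63 on the log2 scale. In the plasminogen and metalloproteinase list 3 of 42 rose, 1 fell and 38 did not pass (median 0.35, 0.30 to 0.42), with the procollagen protease gene Adamts2 up by 1.08 ± 0.29 and the membrane metalloproteinase gene Mmp15 falling from 75.9 ± 10.4 to 49.4 ± 11.8 CPM.

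The constricted hearts differed among themselves in many of these genes. Hearts 3 and 4 both exceeded hearts 1 and 2 in 210 of the 369 genes called higher (56.9%) and in 26.1% of the 7019 genes with a fold change above 0. Both lay below hearts 1 and 2 in 196 of the 350 genes called lower (56.0%) and in 27.2% of the 6891 genes below 0. Measured as the median over members of log2(CPM + 0.5) minus the sham mean, activated fibroblast markers were at 1.18, 0.77, 3.46 and 2.11 in hearts 1 to 4. Hypertrophic genes were at 0.66, 0.41, 1.19 and 1.44, and fatty acid genes at -0.29, -0.27, -0.80 and -0.55. Complex I genes were nearly level, at -0.48, -0.59, -0.65 and -0.58. For these genes Sham-NT 3 lay close to the constricted hearts, at -0.46, while Sham-NT 1, 2 and 4 were at 0.19, 0.18 and 0.07. The order of the hearts was read from the same values, so it is a description.

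**Figure D5:**
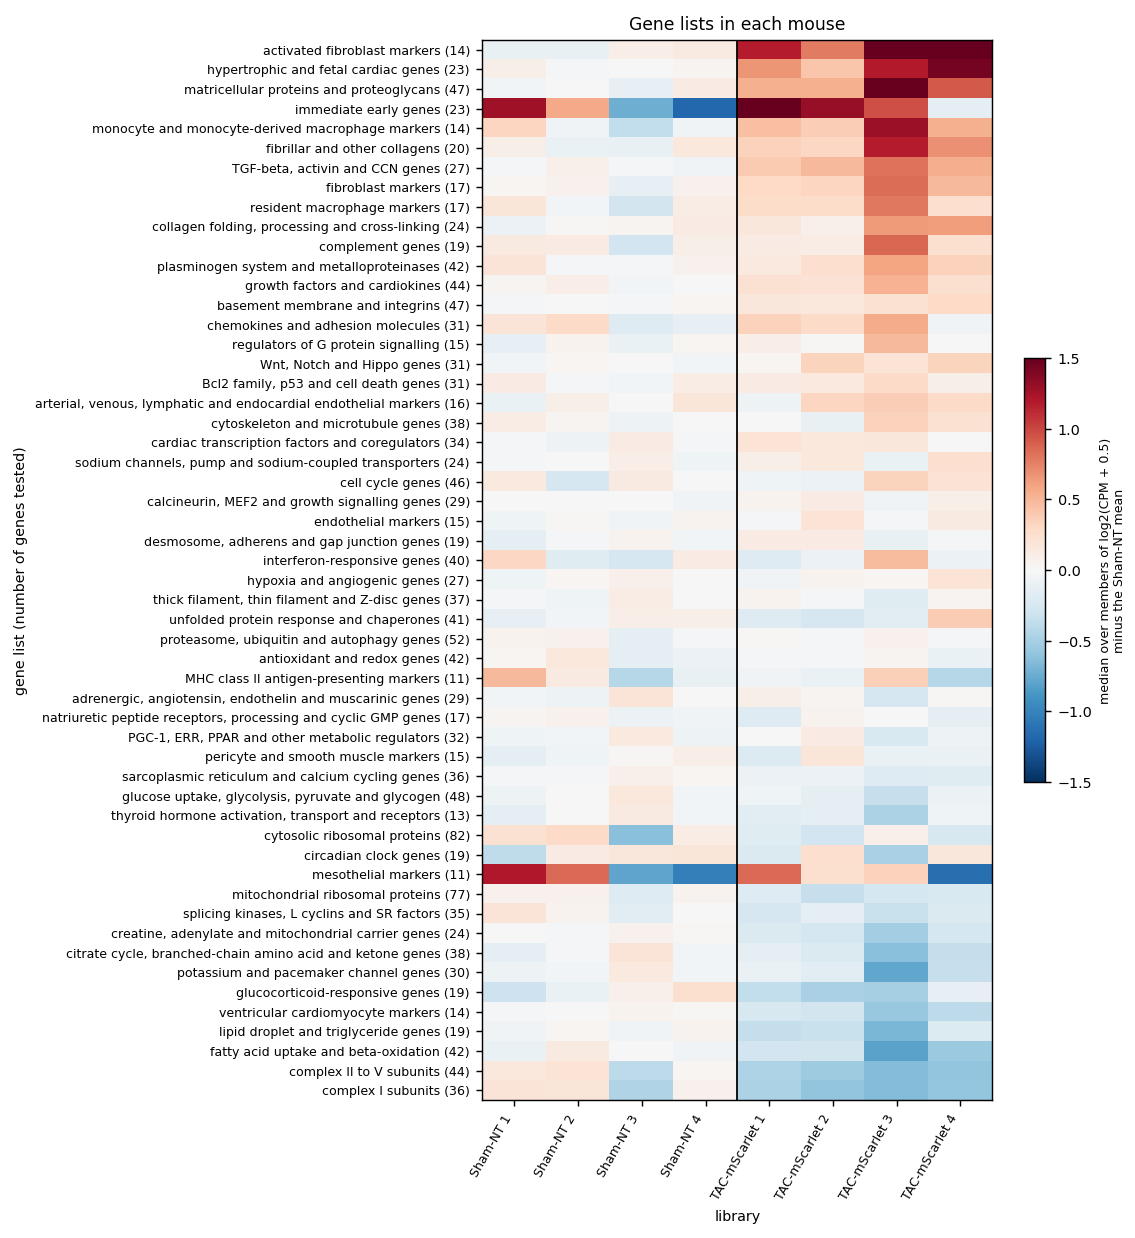
Each row is a gene list and each column a library, coloured by the median over members of log2(CPM + 0.5) minus the mean of the 4 Sham-NT libraries, with colours ending at 1.5 on either side and rows ordered by the list's median fold change. Matricellular and hypertrophic lists are red in all TAC-mScarlet columns and darkest in columns 3 and 4. The complex I and complex II to V lists are blue in all 4 and in Sham-NT 3, and immediate early and mesothelial lists vary inside both groups.

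Nuclear genes of the respiratory chain were lower by list median in every constricted heart, but also in Sham-NT 3. For complex I and for complexes II to V, Sham-NT 3 was at -0.46 and -0.40 against the sham mean. TAC-mScarlet 1 was at -0.48 and -0.46. Of 36 complex I subunits 16 fell and 20 did not pass, all 36 values were below 0, 19 were lower with no overlap against 6.78% of all genes, and the median was -0.59 (-0.69 to -0.52). Of 44 subunits of complexes II to V 14 fell and 30 did not pass, again with all 44 below 0 (median -0.57, -0.65 to -0.50). Ndufv1, the subunit that takes electrons from NADH, was at 920.1, 1037, 832 and 937 CPM in Sham-NT and 667, 650.1, 511 and 577 CPM in TAC-mScarlet (-0.63 ± 0.14, adjusted p = 0.0245). Cox7a1, the muscle subunit of cytochrome oxidase, was at 1292, 1286, 757 and 1228 CPM against 633, 642, 491 and 575 CPM (-0.96 ± 0.21, adjusted p = 0.0245). Sham-NT 3, the deepest sham library, lay nearest the constricted hearts in Cox7a1, as it did in Ndufa13 (792, 817, 447 and 791 CPM) and Ndufv3 (814, 761, 435 and 705 CPM). No gene of either list was called when TAC-mScarlet 3, Sham-NT 2 or Sham-NT 4 was left out. The part of depth in these differences was not tested beyond the thinned counts, in which the medians were -0.58 and -0.57.

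Protein synthesis genes were called at or below the share of all genes, 5.17%. Of 77 mitochondrial ribosomal proteins 4 fell (5.19%) and 73 did not pass (median -0.27, -0.32 to -0.22). Among those that fell was Mrpl14 (-0.93 ± 0.18, adjusted p = 0.0204), and 70 of the 77 values were below 0. In the cytosolic ribosomal list Sham-NT 3 had a median of -0.62 against the sham mean, below every constricted heart. Of 82 cytosolic ribosomal proteins 81 did not pass (1.22% called) and the median was -0.19 (-0.36 to -0.10). The exception was Rpl3l, the muscle version of Rpl3, at 438, 482, 358 and 476 CPM against 258, 260.5, 123 and 194 CPM (-1.07 ± 0.22, adjusted p = 0.0229).

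All called genes of fuel use, on the lipid and on the sugar side, were lower. In the fatty acid list 12 of 42 genes fell, and 30 were not called (median -0.49, -0.56 to -0.35). Acaa2, a thiolase of the last oxidation step, was at 1304, 1631, 1142 and 1391 CPM against 798, 750.0, 382 and 498 CPM (-1.17 ± 0.23, adjusted p = 0.0217), with hearts 3 and 4 lowest. Etfb, the electron carrier of that pathway, was at 325, 323, 119.6 and 291 CPM against 109, 112, 93.5 and 85.6 CPM (-1.40), and Sham-NT 3 was close to the constricted hearts. Lpl, the lipase that frees fatty acids from blood lipids, fell from 14395 ± 1528 to 10015 ± 1205 CPM, while the uptake receptor Cd36 gave -0.16 ± 0.13 (adjusted p = 0.49). Among lipid droplet genes 5 of 19 fell and 14 did not pass (median -0.46, -0.54 to -0.38), among them the droplet coats Plin4, by 0.79 on the log2 scale, and Plin5, by 0.75.

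In glucose handling 7 of 48 genes fell and 41 did not pass (median -0.17, -0.21 to -0.08). Beside Pfkfb1, Eno3 was at 2036, 2010.2, 1706 and 1892 CPM against 1226, 1209.5, 892 and 1080.5 CPM (-0.79 ± 0.17, adjusted p = 0.023), and Pkm, pyruvate kinase, and Ldhb, the heart lactate dehydrogenase, fell by 0.49 and 0.60. In the citrate cycle, amino acid and ketone list 6 of 38 fell and 32 did not pass (median -0.33, -0.39 to -0.24), with Suclg1 at 698, 773, 637 and 710.5 CPM against 488, 451, 341 and 454 CPM. Of 24 energy transfer genes 3 fell and 21 did not pass (median -0.30, -0.35 to -0.24): the mitochondrial creatine kinase Ckmt2 by 0.51, the adenine nucleotide carrier Slc25a4 by 0.53 and Coq10a by 0.50. Among 32 regulators of this metabolism 3 fell, 1 rose and 28 did not pass, and the median of -0.08 (-0.12 to 0.01) became 0.05 under library size scaling. Ppargc1a, the coactivator PGC-1alpha, was at 113, 98.4, 167 and 103 CPM against 71.2, 65.6, 42.4 and 81.0 CPM (adjusted p = 0.0426), a call lost in all 8 leave-one-out fits. Esrra, its partner receptor, fell by 0.52 on the log2 scale, and Prkab2, a subunit of the energy sensor AMPK, rose by 0.68 ± 0.14.

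Stress and quality control lists had medians near that of all genes. Called were 7.14% of antioxidant, 4.88% of unfolded protein, 1.92% of proteasome, ubiquitin and autophagy and 3.23% of cell death genes, against 5.17% of all genes. The share was 2.17% in cell cycle and 14.8% in hypoxia and vessel growth genes. Of 42 antioxidant genes 3 fell and 39 did not pass, with a median of -0.03 (-0.11 to 0.07) that became 0.09 under library size scaling, and Sod2 of the mitochondrial matrix fell by 0.52. In the unfolded protein list (median -0.01, -0.15 to 0.06, and 0.12 under library size scaling) Herpud1, of endoplasmic reticulum degradation, fell from 295 ± 57.1 to 154 ± 40.4 CPM, Hspb8 rose by 0.42 ± 0.11, and 39 of 41 did not pass. Pink1, which marks damaged mitochondria, was the 1 of 52 proteasome, ubiquitin and autophagy genes called (-0.75 ± 0.16, adjusted p = 0.0241; list median -0.01, 0.12 under library size scaling). Bcl2, which blocks cell death, was at 9.52, 9.57, 11.0 and 10.9 CPM against 20.9, 18.3, 38.0 and 31.2 CPM (1.40 ± 0.23, adjusted p = 0.0148), and the other 30 of 31 cell death genes did not pass (median 0.21, 0.11 to 0.23). Of 46 cell cycle genes 45 did not pass (median 0.07, 0.00 to 0.19), and the kinetochore gene Cenpf fell from 13.9, 36.5, 24.3 and 30.3 to 9.08, 9.74, 3.74 and 3.71 CPM. In the hypoxia and vessel growth list 2 of 27 rose, 2 fell and 23 did not pass (median 0.04, -0.03 to 0.09), with Vegfc up by 0.88 ± 0.20 and Vegfb down by 0.54.

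Markers of non-muscle cells are given by list, since in bulk tissue fewer cells of a type and less RNA per cell cannot be told apart. Activated fibroblast markers rose in 6 of 14 and 8 did not pass (median 2.27, 1.38 to 2.55), and their summed level was 232 to 275 CPM in Sham-NT and 589.8 to 3932 CPM in TAC-mScarlet. Not all of them went up: 12 values were above 0 and 2 below. General fibroblast markers rose in 4 of 17 and 13 did not pass (median 0.54, 0.36 to 0.63), with sums of 2641 to 3465 CPM against 3669 to 6835 CPM. Here 14 values were above 0 and 3 below. Resident macrophage markers rose in 4 of 17 and 13 did not pass (median 0.44, 0.22 to 0.47; sums 642 to 735 against 809 to 1162 CPM). Adgre1, the macrophage antigen F4/80, was at 16.7, 11.5, 12.6 and 11.4 CPM against 21.7, 23.3, 30.4 and 19.1 CPM (0.87 ± 0.17, adjusted p = 0.0204). Monocyte-derived macrophage markers rose in 3 of 14 and 11 did not pass (median 0.66, 0.43 to 0.82; sums 386 to 492 against 574 to 987 CPM), among them the Fc receptor gene Fcgr1, from 1.97 ± 1.07 to 6.96 ± 3.74 CPM. The sums of these 4 lists did not overlap between the groups and were highest in heart 3, and their part in the matrix results was not tested.

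Ventricular muscle markers went the other way, with 4 of 14 fallen, 10 not passing, a median of -0.38 (-0.45 to -0.31) and sums that did not overlap. None of 15 endothelial markers was called by edgeR (median 0.07, 0.00 to 0.11), 1 had an unadjusted p below 0.05, DESeq2 called 1 (against 9.86% of all genes) and limma-voom 0 (against 3.41%), and the sums of 4802 to 5608 and 4629.6 to 5121 CPM overlapped. One of 15 pericyte and smooth muscle markers fell (6.67%, against 5.17% of all genes called), Smtn by 0.51, and the median of -0.11 (-0.16 to 0.02) became 0.02 under library size scaling. In the nerve and Schwann cell list 2 of 6 fell (33.3% called, against 5.17% of all genes) and 4 did not pass (median -0.14, -0.38 to -0.10). The sums of this list were lower in TAC-mScarlet with no overlap, but its members did not all move together. Below 0 were 5 values, and the 1 above 0 was higher with no overlap. Dbh, the enzyme that makes noradrenaline in sympathetic nerves, was at 4.96, 6.64, 5.31 and 8.17 CPM against 2.03, 1.25, 1.44 and 1.28 CPM (-2.06 ± 0.43, adjusted p = 0.0233). Complement genes rose in 3 of 19, 1 fell and 15 did not pass (median 0.36, 0.13 to 0.46), with Serping1, the inhibitor of C1, up by 0.62 ± 0.17.

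Immediate early genes differed widely inside both groups. None of 23 was called by edgeR although the median was 1.01 (0.78 to 1.53), 3 had an unadjusted p below 0.05, DESeq2 called 1 and limma-voom 0. Other edgeR fits called some of them higher: 5 with the replicate number as a block, 6 with the side of the Fos split as a term, where the median was 0.62, and 4 inside its high side, where it was 0.78. The split was set at 30 CPM of Fos, itself a member of this list. Calls of the list in the fits that use the split are therefore not independent of it and give no support. Egr1, a factor induced within minutes, was at 232, 214, 29.1 and 16.3 CPM in Sham-NT and 763, 539, 558 and 35.0 CPM in TAC-mScarlet, and Fkbp5, a glucocorticoid target, was opposite, at 24.4, 21.1, 56.0 and 66.0 CPM and 18.9, 22.3, 17.8 and 71.8 CPM. Msln, a marker of the outer lining of the heart, followed Fos, at 26.2, 17.4, 4.79 and 2.88 CPM and 19.0, 11.9, 12.7 and 0.464 CPM. With the side of this split as a term in the model, 1459 genes were called, 711 higher and 748 lower, and all 719 were among them. Inside the high side alone, with 2 Sham-NT and 3 TAC-mScarlet libraries, 692 were called and 282 of the 719 were among them, an alternative chosen after the data were seen. The medians of the hypertrophic, matricellular and complex I lists were 0.98, 0.92 and -0.72 there.

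The remaining lists held at most 2 calls each, to be read beside the 5.17% of all genes called. The share called was 28.6% of atrial and 12.5% of arterial, venous, lymphatic and endocardial markers. It was 6.45% of chemokines and adhesion molecules, 5.26% of glucocorticoid-responsive and 2.50% of interferon-responsive genes. One of 19 glucocorticoid-responsive genes fell, Klf15 again (median -0.37, -0.45 to -0.17), 1 of 40 interferon-responsive genes rose, Ifit2, by 0.71 ± 0.18 (median 0.04, -0.13 to 0.14), and 2 of 31 chemokines and adhesion molecules rose (median 0.26, 0.13 to 0.44), of which Cx3cl1, fractalkine, went from 9.19 ± 1.98 to 15.9 ± 4.13 CPM. Of 7 tested atrial markers 2 rose, Nppa among them (median 0.08, -0.12 to 0.19), and of 16 markers of arterial, venous, lymphatic and endocardial endothelium 2 rose, Efnb2 by 0.46 ± 0.12 and Fbln5 by 1.07 ± 0.22 (median 0.20, 0.14 to 0.31). By edgeR 0 of 35 splicing kinases and SR factors were called (median -0.28, -0.33 to -0.21), although 14 had an unadjusted p below 0.05, 13 of them lower, and DESeq2 and limma-voom called 0, while edgeR called 4 lower inside the Fos-high side. Of 19 clock genes 0 were called (median -0.20, -0.40 to -0.05), with 3 at an unadjusted p below 0.05, 2 called by DESeq2 and 0 by limma-voom. With the side of the Fos split as a term 3 clock genes were called higher, and inside its high side 2 were, with a median of 0.03.

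Other blood and lining cells gave no called marker in the edgeR fit over all 12 libraries with the groups as its only term. Of 11 MHC class II markers 0 had an unadjusted p below 0.05, DESeq2 and limma-voom called 0, and the median of -0.06 (-0.21 to 0.09) became 0.07 under library size scaling. Of 11 mesothelial markers 1 had an unadjusted p below 0.05 and of 6 erythroid markers 0 did, with summed levels of 293 to 693 CPM in Sham-NT and 125 to 1072 CPM in TAC-mScarlet for the erythroid ones. Of 8 neutrophil and mast cell markers and of 6 B cell markers 2 each had an unadjusted p below 0.05, and DESeq2 called 1 in each list. T and NK cell markers were near 0, with 2 tested and sums of at most 3.90 CPM in any of the 8 libraries.

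Several of the widest differences lay outside these lists. Atp6v0a4, a subunit of the proton pump of kidney and inner ear, had 1, 1, 0 and 0 counts in Sham-NT and was at 0.836, 3.28, 7.38 and 6.61 CPM in TAC-mScarlet (adjusted p = 0.015), and with so few sham counts no fold is given. At higher expression, Pam, which amidates peptide hormones, rose from 496 ± 128 to 1048 ± 242 CPM. Lgals4, a galectin known from gut epithelium, was at 221, 331, 83.2 and 187 CPM against 51.5, 63.0, 25.6 and 21.3 CPM (-2.35 ± 0.50, adjusted p = 0.0309). The kinase gene Sbk2 fell from 5.54 ± 1.42 to 1.18 ± 0.662 CPM and Lvrn, a membrane aminopeptidase, from 20.7 ± 11.5 to 4.88 ± 2.70 CPM.

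The constricted hearts whose vector carried BacNav share the TAC-mScarlet and Sham-NT libraries as partners of their own comparisons, so their values are only set beside those above. Ankrd1 was at 1756, 2426, 3328 and 3303 CPM there, Myh7 at 149, 199, 415 and 272 CPM and Rgs2 at 43.9, 39.8, 20.3 and 24.8 CPM. Every one of these Ankrd1 values lay between the Sham-NT and the TAC-mScarlet values, while Myh7 and Rgs2 overlapped one of the groups. In the direct test of TAC-BacNav against TAC-mScarlet none of the 3 passed, with adjusted p from 0.78 to 1.0.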

How the data were processed

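RNA of snap-frozen ventricles from 12 mice was sequenced as paired Illumina reads, per the labels' protocols. The authors deposited whole-number read counts per gene, made with HISAT2 and featureCounts per the submitters' processing notes, with versions and strand setting not given in the sources used here. Those notes name GRCh38, a human build, yet 14946 of the 14957 deposited gene IDs are mouse IDs of GENCODE vM21 (GRCm38), which supplied positions and exon lengths. Groups came from the mouse names, and every library is 1 mouse. Every pair of replicates differed beyond counting noise, with a chi-square of at least 5.35 for each degree of freedom.

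Counts were fitted in R 4.3.3 with edgeR 4.0.16: filterByExpr (13910 genes kept, 1047 removed), TMM scaling, the robust quasi-likelihood test over all 12 libraries and Benjamini-Hochberg adjustment over all genes tested, with calls below 0.05. CPM values are counts scaled to 1000000 of the effective library size, the library total times its TMM factor. The SE is the fold change divided by the root of the F statistic. The test was tried on simulated counts. Alternatives used DESeq2 1.42.0, limma-voom (limma 3.58.1), other scalings and filters, thinned counts, a replicate block, the 8 libraries alone, the Fos side and leaving out each library. The main fit did not treat the numbers as pairing the mice. Same-numbered Sham-NT and TAC-mScarlet libraries deviated together with correlations of 0.11, 0.07, -0.28 and 0.25. For TAC-mScarlet and TAC-BacNav they were 0.36, -0.02, 0.17 and 0.38. So few values cannot decide whether the numbers pair the mice.

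Members and gene lists (61, of which 60 had a tested gene; adipocyte markers were not analysed here) were chosen with earlier results of these data known. Genes are named if called in every leave-one-out fit, if among the 10 called genes per direction with the largest difference in CPM or the largest fold change, or if among up to 4 called members per direction and list by smallest p, with a few fixed genes of each list given whether called or not. Isoform partners and overlapping genes are named beside them. Promoter windows came from RefSeq. Some genes that the rule names are not reported here.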

Additional observations from a re-analysis of the deposited data

Results flagged for a closer look

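For the 139 genes of the naming rule that are printed here, 278 groups of 4 mice were checked for a mouse far from the other 3, and 24 groups held one, where chance gives about 1 in 20. Of these, 15 were Sham-NT 3, which is also the deepest of the Sham-NT libraries at 7837342 counts.

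Sham-NT 3 was low for genes of energy supply and muscle: Cox7a1 at 756.8 CPM, Ndufa13 at 447 CPM, Etfb at 119.6 CPM, Ckmt2 at 3202 CPM, Map1lc3a at 539.5 CPM and Itgb1bp2 at 270.5 CPM. It was also low for Rgs2 (67.8 CPM) and Itgb8 (0.776 CPM) and high for Kcnd2 (36.0 CPM), and the direction of each difference between the groups is the same with and without it. It was above the other sham hearts for matrix and structural genes as well, with Col8a1 at 41.4 CPM, Fstl1 at 128 CPM, Prelp at 43.0 CPM, Emilin1 at 16.2 CPM, Flnc at 297 CPM and Sox9 at 4.27 CPM.

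Sham-NT 1 was high for Nppb at 575 CPM and Fcgr1 at 3.57 CPM and low for Tuba4a at 509 CPM, and Sham-NT 4 was high for Synpo2l at 235 CPM and Vim at 422 CPM. TAC-mScarlet 3 was far below the other constricted hearts for Myh6 at 4764 CPM, Atp2a2 at 7061 CPM and Nrap at 508 CPM. TAC-mScarlet 4 was far above them for Fkbp5, at 71.8 CPM.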

How the results depend on the processing

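The 719 calls (369 higher, 350 lower) depended on which mouse was left out: with 1 library fewer, 14 (without Sham-NT 2) to 1055 (without Sham-NT 3) genes were called, 11 to 445 higher and 3 to 610 lower, and the sign of all 719 was kept in each of these 8 fits. DESeq2 called 1371 (661 higher, 710 lower), limma-voom 475 (204 higher, 271 lower), and scaling by library size gave 698 higher and 205 lower. With the immediate early gene side as a term 1459 were called (711 higher, 748 lower). The cause of these shifts was not tested. The totals stayed within 1.5 times of 719 with RLE size factors (727), no filter (727), a minimum of 1 CPM (721), only the 8 libraries (658), thinned counts (708), library size scaling (903) and the Fos-high side (692, added after the data were seen). As to pairing, with the replicate number as a block 889 genes were called (442 higher, 447 lower), 641 of the 719 among them, and not every library correlated best with its own number. At 5360869 to 9813733 counts, genes of a few counts, such as Atp6v0a4 and Rgs7, have no stable fold change.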
